A study of Mus musculus with 1989 samples.

Results

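The 5 genes described here, Trac, Trbc1, Trbc2, Tcrg-C1 and Tcrg-C2, encode constant regions of the T cell receptor chains, and they were taken by symbol from the 8846 genes of a single-cell RNA table of mouse thymus. All 5 were present. The RNA came from thymocytes of 7-week-old male C57BL/6 mice, an inbred laboratory strain with no added allele or agent, which were captured in droplets and read from the 3′ end of each transcript. They form 1 library of 1993 cells. In a second assay on mice of the same strain and age, scATAC-seq, open DNA was counted in single thymocytes sorted as double-negative (DN, 182 cells), double-positive (DP, 125 cells), CD4 (119 cells) and CD8 (116 cells). No animal was named for a cell in either assay, so each library or sort counted as 1 sample, no test between stages was possible, SDs are spreads over cells, and intervals are exact 95% intervals that cover at most counting error.

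T cell receptors are heterodimers. An alpha chain pairs with a beta chain in most thymocytes, and a gamma chain pairs with a delta chain in a separate lineage. The variable part of each chain is assembled by recombination of gene segments, and the constant part is joined to it by splicing. Beta, gamma and delta genes are recombined in DN cells. A beta chain that pairs with the pre-T alpha chain drives division through the immature single-positive (ISP) and DP blast (DPbla) stages, the alpha locus is then recombined in resting DP cells (DPre), and cells whose receptor is engaged go on as selected DP cells (DPsel) to CD4 or CD8 single-positive cells (CD4sp, CD8sp). The delta locus lies inside the alpha locus, so that recombination of alpha removes it.

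Trac lies at chr14:54220521-54224206, Trbc1 at chr6:41538218-41539881 and Trbc2 at chr6:41546730-41548352, all on the plus strand of GRCm38, with Trbc2 starting 6.85 kb after the end of Trbc1. Tcrg-C1 lies at chr13:19214103-19217024 on the plus strand and Tcrg-C2 at chr13:19304649-19307551 on the minus strand. Each is annotated as a T cell receptor constant gene. The coding parts of the paired genes are near copies, which matters for how far their reads can be told apart. The first exons of Trbc1 and Trbc2 are both 375 bases long and differ at 1 of them, C260A, with Trbc1's base first and positions counted from the start of the exon. The 60 bases around that position follow, from the plus strand of the RefSeq GRCm38 genome, with the differing base in capitals.
Trbc1, chr6:41538447-41538506: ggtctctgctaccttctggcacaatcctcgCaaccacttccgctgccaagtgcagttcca
Trbc2, chr6:41546959-41547018: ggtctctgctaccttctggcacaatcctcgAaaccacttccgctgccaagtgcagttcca

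The 3′ ends of these 2 genes are different. Their last exons, which the reads of a 3′ library mostly come from, were identical at 51.3% of aligned bases. The last exons of Tcrg-C1 and Tcrg-C2 were identical at 94.4% of aligned bases, and their last 100 bases at 90.4%, so reads of this pair could be assigned to either gene or dropped, and the split between them is uncertain.

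The deposited RNA values are log2 quantile-normalized, run from 0 to 7.14, and were 0 at 79.7% of all entries. Cells were grouped into 17 clusters without any T cell receptor gene, so the 5 genes took no part in forming the groups. Clusters were named from marker genes as DN-like (74 cells), ISP-like (167), DPbla-like (340), DPre-like (498), DPsel-like (320), CD4sp-like (230), CD8sp-like (149), nonconventional lymphocyte or NCL-like (31) and antigen-presenting cell or APC-like (35). A cluster of 149 dividing cells led by Hmgb2 and Pclaf scored alike for ISP and DPbla and stayed unnamed. Depth differed between classes: as a stand-in for molecules, each value was given its rank among the distinct values of its cell, here called steps, and the median total ran from 1938 steps in NCL-like to 10040 in ISP-like cells. The log2 value of 1 molecule is therefore lower in ISP-like cells than in resting cells. Shares of cells were compared after each cell had been thinned to 1300 steps, which equalizes this stand-in and not the unknown number of molecules. APC-like cells, which should make no receptor, were taken as a guide to free RNA. No doublet caller was run, so that their receptor values are free RNA alone was not tested.

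**Figure D1:**
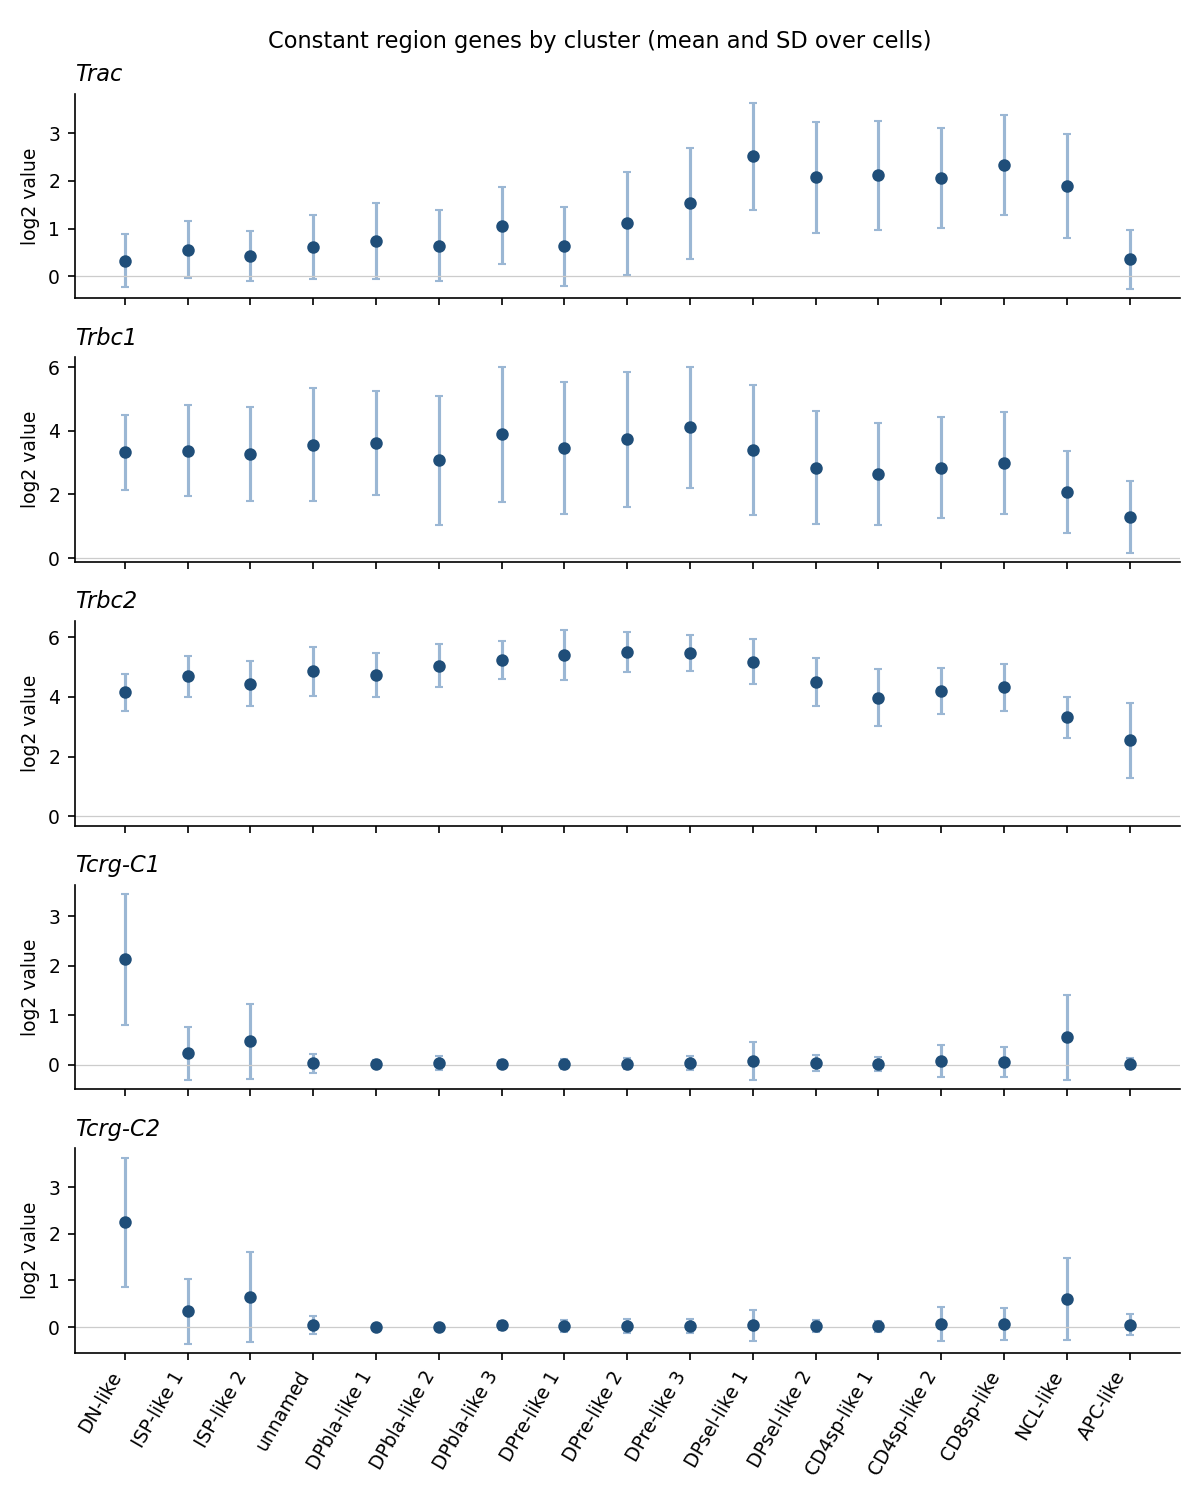
Mean log2 value of each constant region gene (points) with the SD over cells (bars) in the 17 clusters, in the order of the stages. Trac is highest from DPsel-like 1 to CD8sp-like, Trbc2 in the DPre-like clusters, and both Tcrg genes in the DN-like cluster.

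Trac, the alpha constant gene, was low in early cells and high from selection onwards. Before selection its mean log2 value was 0.33 ± 0.56 (DN-like), 0.48 ± 0.55 (ISP-like), 0.78 ± 0.79 (DPbla-like) and 1.15 ± 1.11 (DPre-like). From selection onwards it was 2.30 ± 1.16 (DPsel-like), 2.08 ± 1.07 (CD4sp-like) and 2.33 ± 1.05 (CD8sp-like), and APC-like cells had 0.36 ± 0.62. The spreads of neighbouring stages overlapped throughout. The median DPre-like cell had 0.91 and the median DPsel-like cell 2.49, with the lower quartile of DPsel-like cells at 1.60 and the upper quartile of DPre-like cells at 1.95.

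At equal step totals Trac was found in 17.6% (9.70 to 28.2) of DN-like and 13.8% (8.94 to 20.0) of ISP-like cells, against 20.0% (8.44 to 36.9) of APC-like cells. These intervals overlap, and the APC-like value rests on 7 cells. Free RNA takes a smaller part of a deep cell, so the shares do not settle how much of the early Trac was free RNA. Without thinning, 75.4% of ISP-like cells had a Trac value above 0, with a median of 10040 steps, against 37.1% of APC-like cells with a median of 2412 steps. At equal step totals 31.2% (26.3 to 36.4) of DPbla-like and 51.4% (46.9 to 55.9) of DPre-like cells had Trac. The share was 82.2% (77.6 to 86.2) for DPsel-like, 80.0% (74.2 to 85.0) for CD4sp-like and 81.9% (74.7 to 87.7) for CD8sp-like cells. These 3 classes did not differ beyond their intervals.

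The DPre-like class was not uniform in Trac. The 3 DPre-like clusters, numbered by their place in a computed cell order, had Trac at equal step totals in 26.5% (18.8 to 35.5), 54.6% (47.6 to 61.6) and 64.2% (56.7 to 71.3) of cells. The first of them still held Mki67, a gene of dividing cells, in 42.7% of its cells. Its Trac share was below those of the 3 DPbla-like clusters, 29.3% to 34.0%, with intervals that overlapped all of them. The same clusters ran the other way in Trdc, the delta constant gene, which was found in 34.2% (25.7 to 43.5), 16.1% (11.4 to 21.9) and 11.4% (7.08 to 17.0) of cells.

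To follow this without class borders, the 1197 DPre-like, DPsel-like and single-positive-like cells were put in a computed order and split into 12 bins of 99 or 100 cells. The order was built from the same principal components, which hold no receptor gene. It was not used for earlier cells, because it placed the DN-like cluster after dividing cells. Mean Trac was 0.61 in bin 1, 0.93 in bin 2, 1.71 in bin 5 and 2.50 in bin 6, and lay between 1.90 and 2.34 in all later bins. Trdc was 0.86 in bin 1, 0.34 in bin 2 and 0.16 in bins 4 and 5. Rag1, which encodes a subunit of the recombinase, was highest in bin 4 at 2.34, when Trac was still 1.27, and was 0.64 in bin 6. The step to the highest Trac level and the low Rag1 level thus fell in the same bin, where 92.0% of the cells were DPsel-like. Rag1 is itself a marker of the DPre class, so its place in the order is no independent value.

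**Figure D2:**
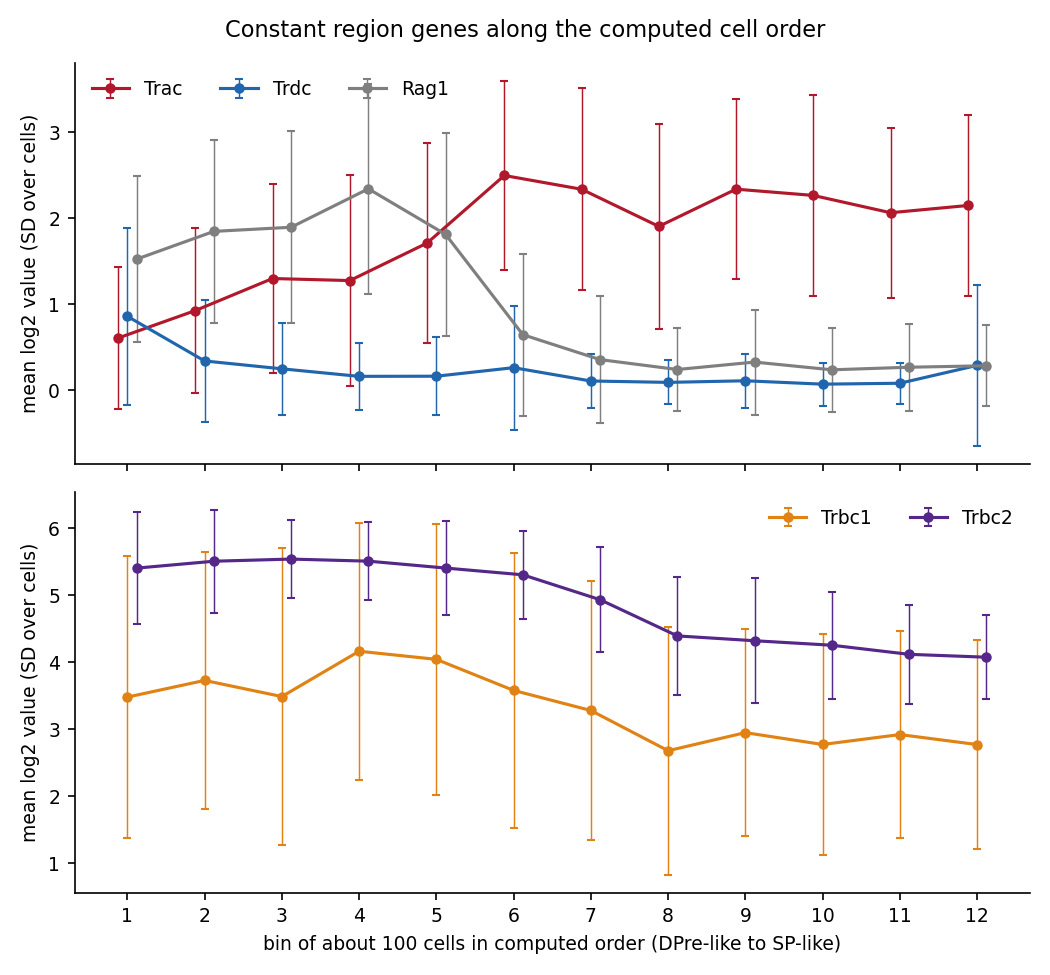
Mean log2 values (points) with SD over cells (bars) of Trac, Trdc and Rag1 (upper panel) and of Trbc1 and Trbc2 (lower panel) in 12 bins of the computed order from DPre-like to single-positive-like cells. Trac goes from 0.61 in bin 1 to 2.50 in bin 6, Rag1 goes from 2.34 in bin 4 to 0.64 in bin 6, and Trbc2 goes from 5.54 in bin 3 to 4.08 in bin 12.

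In the early classes most cells with a Trac value above 0 also had Trdc. Among ISP-like cells with Trac, 91.3% (84.9 to 95.6) also had Trdc, and among those without Trac 75.6% (59.7 to 87.6). In DPre-like cells the corresponding shares were 24.5% (20.0 to 29.5) and 32.5% (25.4 to 40.3). These shares were not thinned, and the intervals overlap in both classes. At equal step totals Trdc was found in 44.6% (33.0 to 56.6) of DN-like cells and 41.3% (33.8 to 49.2) of ISP-like cells. It was found in 25.9% (21.3 to 30.9) of DPbla-like, then 18.7% (15.4 to 22.4) of DPre-like, then 9.38% (6.42 to 13.1) of DPsel-like and 5.54% (3.46 to 8.35) of single-positive-like cells. The share of APC-like cells was 2.86% (0.0723 to 14.9).

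Trbc2, a beta constant gene, was among the most abundant transcripts of the thymocyte. It was above 0 in 1992 of 1993 cells and among the 10 highest genes in 87.8% of DPre-like cells. Its mean log2 value was 4.15 ± 0.63 (DN-like), 4.54 ± 0.74 (ISP-like), 4.92 ± 0.74 (DPbla-like) and 5.48 ± 0.69 (DPre-like). In later classes it was 4.84 ± 0.86 (DPsel-like), 4.12 ± 0.83 (CD4sp-like) and 4.32 ± 0.79 (CD8sp-like). The highest mean was that of DPre-like cells, and CD4sp-like cells were near the DN-like level. At equal step totals ISP-like cells were not above DN-like cells, with means of 5.17 and 5.35 steps. In NCL-like cells the mean was 3.32 ± 0.69. In APC-like cells it was 2.54 ± 1.26, with a value above 0 in all 35, so the presence of Trbc2 in a cell says nothing about that cell's own expression and only its level is read here.

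Trbc1 varied more from cell to cell than Trbc2. Its mean was 3.33 ± 1.18 (DN-like), 3.31 ± 1.45 (ISP-like), 3.53 ± 1.88 (DPbla-like) and 3.80 ± 2.05 (DPre-like). It was 3.12 ± 1.94 (DPsel-like), 2.79 ± 1.59 (CD4sp-like), 2.99 ± 1.59 (CD8sp-like) and 1.29 ± 1.12 (APC-like). The SD of Trbc1 was above that of Trbc2 in each of these classes except APC-like, and all class means lay within 1 SD of each other from DN-like to CD8sp-like cells. In DPre-like cells Trbc1 had quartiles of 1.94 and 5.42 around a median of 4.60, against 5.04 and 6.14 around a median of 5.42 for Trbc2.

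A thymocyte that makes 1 beta chain uses either constant gene, so the pair was compared within each cell. These log2 values were not thinned while depth differed between the classes, and the part of depth in the shares was not tested. The log2 value of Trbc1 minus that of Trbc2 had a median between -0.69 (DN-like) and -1.50 (DPsel-like) in the thymocyte classes, and of -1.08 over all cells. The 2 genes have different 3′ ends, so this offset is not read as more molecules of Trbc2. The spread is what differed: the quartiles were -1.48 and 0.10 in DN-like cells and -3.57 and 0.19 in DPre-like cells. Trbc2 was higher than Trbc1 by at least 2 in 20.3% (11.8 to 31.2) of DN-like cells and 32.3% (25.3 to 40.0) of ISP-like cells. The share was 37.1% (31.9 to 42.4) for DPbla-like, 38.8% (34.5 to 43.2) for DPre-like, 42.2% (36.7 to 47.8) for DPsel-like and 36.7% (31.8 to 41.8) for single-positive-like cells. The interval of DN-like cells lay below those of the last 4 classes, and that of ISP-like cells overlapped all of them. In APC-like cells the share was 28.6% (14.6 to 46.3).

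The reverse was rare by this cut. The cut is set around 0 and not around the median of -1.08 over all cells, so it asks more of Trbc1 than of Trbc2. The shares in the 2 directions are therefore not read as use of the 2 genes. Trbc1 was higher by at least 2 in 29 of 1993 cells, or 1.46% (0.977 to 2.08), and was higher at all in 27.6% (25.6 to 29.6). The share of cells with Trbc1 higher than Trbc2 differed little between classes, from 23.9% (18.6 to 30.0) in CD4sp-like to 32.9% (28.0 to 38.2) in DPbla-like cells among the classes from DN-like to CD8sp-like. In DPre-like cells with Trbc2 above its median, mean Trbc1 was 3.42 ± 2.02, against 4.16 ± 2.01 in the others. The corresponding means were 3.07 and 3.17 in DPsel-like and 2.64 and 3.08 in single-positive-like cells. Over DPre-like cells the Pearson correlation of the pair was -0.24, over DPsel-like cells -0.11 and over DN-like cells 0.19, where the cells share 1 library and 1 normalization and differ in depth.

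**Figure D3:**
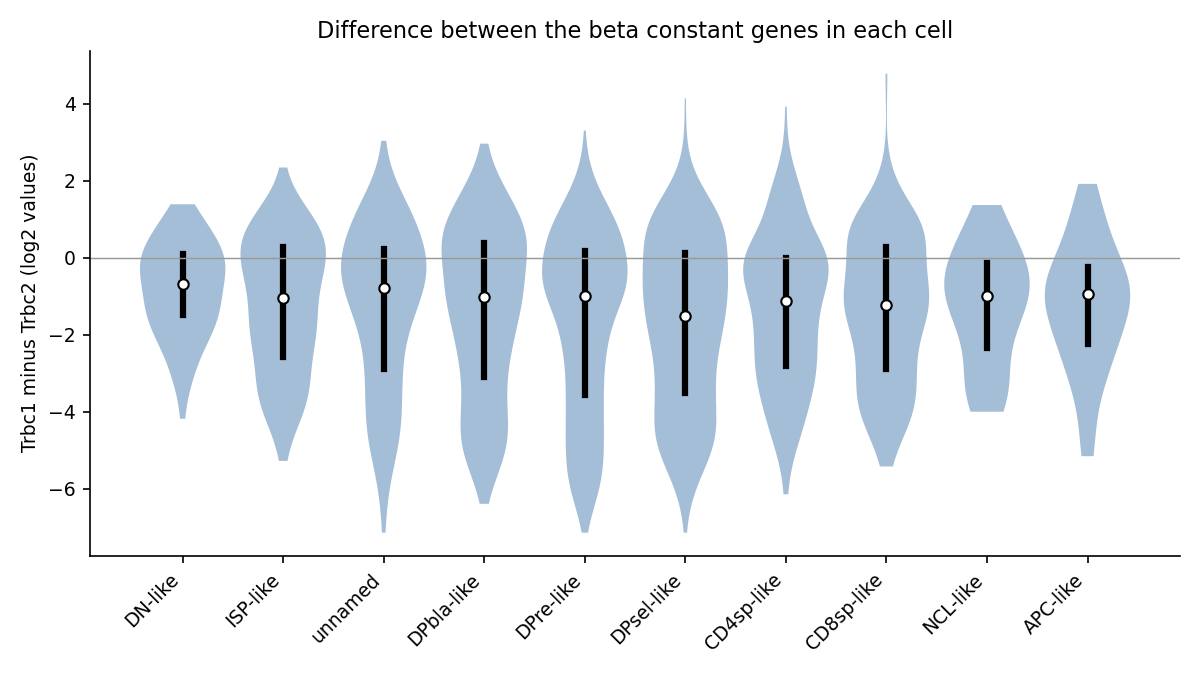
Log2 value of Trbc1 minus that of Trbc2 in each cell, drawn as the distribution over cells of each class with the median (circle) and quartiles (bar). The lower quartile is -1.48 in DN-like and -3.57 in DPre-like cells, and few cells of any class lie above 2.

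Counting cells by presence was less informative for this pair. Among single-positive-like cells with either beta gene above 0, 91.6% (88.3 to 94.2) had both, and this was 98.6% in DN-like, 90.0% in DPre-like, 86.2% in DPsel-like and 77.1% (59.9 to 89.6) in APC-like cells. Since the APC-like share was that high, a cell with both genes is not read as a cell that expresses both. Trbc1 was at 0 in 43 of 320 DPsel-like cells and 32 of 379 single-positive-like cells, and Trbc2 was at 0 in 1 cell of the library, a DPsel-like cell. The higher value of the pair in each cell, which is mostly that of Trbc2, had a mean of 4.31 ± 0.63 in DN-like, 5.72 ± 0.56 in DPre-like, 5.09 ± 0.71 in DPsel-like and 4.46 ± 0.66 in single-positive-like cells.

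Tcrg-C1 and Tcrg-C2, the gamma constant genes, marked the DN-like class. Mean log2 values in DN-like cells were 2.13 ± 1.32 for Tcrg-C1 and 2.25 ± 1.38 for Tcrg-C2, and the highest mean in any other cluster was 0.64, that of Tcrg-C2 in one of the ISP-like clusters. Tcrg-C1 was above 0 in 86.5% (76.6 to 93.3) and Tcrg-C2 in 82.4% (71.8 to 90.3) of DN-like cells. At equal step totals the shares were 67.6% (55.7 to 78.0) and 73.0% (61.4 to 82.7) in DN-like cells, 15.0% (25 of 167) and 19.8% (33 of 167) in ISP-like cells, and 1.47% (0.479 to 3.40) and 1.18% (0.322 to 2.99) in DPbla-like cells. In the 4 classes after DPbla-like they lay between 1.56% and 3.48%, and in APC-like cells both were 2.86% (0.0723 to 14.9). The APC-like value rests on 1 cell for each gene. In later cells, with no thinning, Tcrg-C2 was above 0 in 5 of 13 DPsel-like cells with Tcrg-C1, or 38.5% (13.9 to 68.4), against 0.652% (0.0790 to 2.33) of those without it. In CD8sp-like cells the shares were 50.0% (11.8 to 88.2) and 2.80% (0.767 to 7.01). In CD4sp-like cells they were 21.4% (4.66 to 50.8) and 2.78% (1.03 to 5.95), and in DPre-like cells 7.14% (0.181 to 33.9) and 3.31% (1.90 to 5.31), with intervals that overlap in both classes. In DPbla-like cells none of 26 cells with Tcrg-C1 had Tcrg-C2 (0 to 13.2), against 7.33% (4.70 to 10.8) of the others. The 2 ISP-like clusters had Tcrg-C1 in 13.6% (6.43 to 24.3) and 15.8% (9.34 to 24.5) and Tcrg-C2 in 10.6% (4.37 to 20.6) and 25.7% (17.6 to 35.4) of cells at equal step totals, with intervals that overlap for both genes. The unnamed dividing cluster had Tcrg-C2 in 2.68% (0.736 to 6.73).

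Most DN-like cells carried both gamma genes: 56 of the 64 cells with Tcrg-C1 also had Tcrg-C2, or 87.5% (76.9 to 94.5). Some of this sharing could come from reads of 1 gene counted for the other, which was not tested. Tcrg-C4, a further gamma constant gene, was above 0 in 66.2% (54.3 to 76.8) of DN-like cells. Trgv2, a gamma variable segment, was above 0 in 62 cells, of which 22 were DN-like and 22 ISP-like. Markers of other cell types were also found in DN-like cells. The 3 of 5 thymic epithelium markers that were in the table, Epcam, Krt8 and Psmb11, had a mean summed log2 value of 0.39 in DN-like cells and between 0.03 and 0.21 in the other classes, and all 4 B cell markers together 0.17, against 0.02 to 0.11 in the other thymocyte classes and 4.13 in APC-like cells. The 2 of 4 erythroid markers in the table, Hbb-bs and Hbb-bt, had 0.10 in DN-like cells and between 0.01 and 0.07 in the other classes. The 2 of 4 myeloid markers in the table, Lyz2 and Cst3, had 0.69 in DN-like cells, within the range of 0.56 to 0.90 in the other thymocyte classes. Their part in the gamma levels was not tested.

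**Figure D4:**
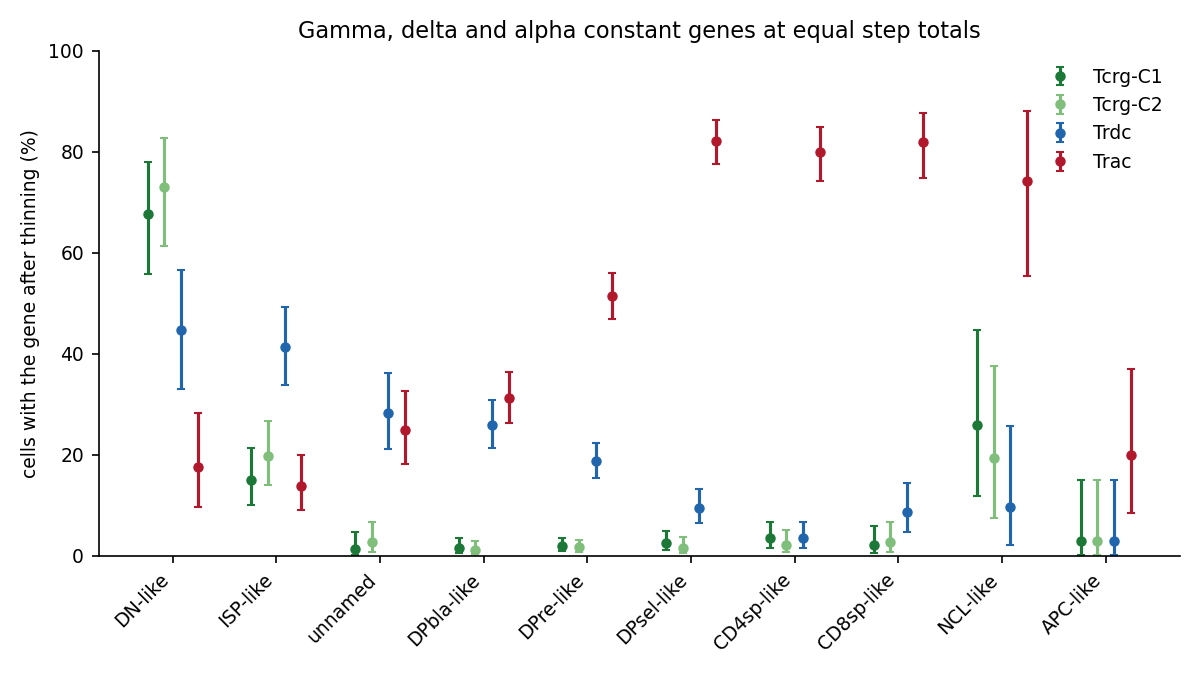
Percent of cells (points) with Tcrg-C1, Tcrg-C2, Trdc and Trac after each cell was thinned to 1300 steps, with exact binomial 95% intervals (bars), by class. The gamma genes go from 67.6% and 73.0% in DN-like cells to under 3% in DPbla-like cells, while Trac goes from 17.6% to over 80% in DPsel-like cells.

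NCL-like cells, which were led by genes such as Nkg7 of cytotoxic granules, combined the gamma and alpha genes. Tcrg-C1 was found at equal step totals in 25.8% (11.9 to 44.6) of the 31 cells, Tcrg-C2 in 19.4% (7.45 to 37.5) and Trac in 74.2% (55.4 to 88.1). Without thinning, 20 of 31 NCL-like cells, or 64.5% (45.4 to 80.8), had Tcrg-C1, Tcrg-C2 or Tcrg-C4, and 19 of these 20 also had Trac. Trdc was above 0 in 4 of the 31. Among DN-like cells with a gamma gene, in contrast, 27 of 70 had Trac and 49 of 70 had Trdc. A further receptor row, singled out after its values were seen, was Trav11, the variable segment of the invariant receptor of natural killer T cells. It was above 0 in 12 of 31 NCL-like cells, or 38.7% (21.9 to 57.8), and in 3 of the other 1962 cells, or 0.153% (0.0315 to 0.446). Of the 12, 11 had Trac and 6 had a gamma constant gene, and of the 19 NCL-like cells without Trav11, 14 had a gamma constant gene.

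A few later cells carried the gamma and delta genes together. Of the 1197 DPre-like to single-positive-like cells, 9 had Tcrg-C1, Tcrg-C2 and Trdc above 0, or 0.752% (0.344 to 1.42). Of these 9, 3 were CD8sp-like, 2 CD4sp-like and 3 DPsel-like, and 1 was DPre-like. Their mean Trdc was 3.41 ± 1.33, which their choice by Trdc above 0 bears on. Their mean Trac was 0.86, with Trac above 0 in 6 of 9, against a mean of 1.79 and 82.2% of the other 1188 cells of these classes. Cd4 was above 0 in 2 of the 9 and Rag1 in 4, against 52.5% and 53.9% of the others. Of the other gamma-delta lineage genes in the table, Id3 was above 0 in 4 of the 9 and in 50.9% of the others. Sox13 was above 0 in 2, Blk in 3 and Maf in 3 of the 9, against 0.253%, 0.168% and 1.26% of the others.

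Each stage was then set against the next over all genes, with a gene counted as past the limit where its mean log2 value differed by at least 0.5 among genes above 0 in at least 20% of either class. From DN-like to ISP-like cells 8.70% of 5945 genes were past the limit. Both gamma genes were among them, with differences of -1.75 for Tcrg-C1 and -1.73 for Tcrg-C2, which placed them as the 5th and 6th lowest differences of all. Trac, Trbc1 and Trbc2 were within it, at 0.15, -0.02 and 0.39. At equal step totals the direction turned for Trac and Trbc2. Trac had a mean of 0.22 steps in DN-like and 0.16 in ISP-like cells, and Trbc2 5.35 and 5.17. From ISP-like to DPbla-like cells 4.82% of genes were past the limit, among them Tcrg-C2, with a difference of -0.51. Tcrg-C1 was within it at -0.36, and Trac, Trbc1 and Trbc2 differed by 0.31, 0.22 and 0.38. From DPbla-like to DPre-like cells 7.00% were past the limit, with Trbc2 higher by 0.55, Trac by 0.36 and Trbc1 by 0.28. Over cells with a value above 0 only, Trac was higher by 0.67 at this step, which is past the limit. On log2(steps + 1) of thinned cells Trac was higher by 0.35, within the limit. The gamma genes were in too few cells of either class to be counted in this and the later steps.

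From DPre-like to DPsel-like cells 4.56% of 2304 genes were past the limit, and all 3 of the members counted were among them. Trac was higher in DPsel-like cells by 1.15, the 8th highest difference of all genes. Trbc1 and Trbc2 had differences of -0.68 and -0.64, so the alpha and beta genes differed in opposite directions at this step. On log2(steps + 1) of thinned cells, a scale that compresses high values, the directions were the same but the beta genes were within the limit, at -0.43 and -0.27, and Trac was at 0.72. From DPsel-like to single-positive-like cells 2.59% were past the limit. Trbc2 had -0.64, the 13th lowest difference, and Trac and Trbc1 differed by -0.12 and -0.26. Between CD8sp-like and CD4sp-like cells 0.514% were past the limit and none of the members were, with Trac, Trbc1 and Trbc2 all higher in CD8sp-like cells by 0.25, 0.20 and 0.20.

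The CD3 chains carry the receptor to the surface and pass on its signal. Of the 6 genes listed for the complex (Cd3d, Cd3e, Cd3g, Cd247, Ptcra and Trat1), 4 were past the limit from DN-like to ISP-like cells, all lower in ISP-like cells, beside 8.70% of all genes. The differences were -1.32 for Cd3g, -0.98 for Cd3d, -0.62 for Cd3e and -0.54 for Ptcra, the pre-T alpha chain. None of the members counted at the other steps was. The median difference over the list was -0.62 at that first step, against 0.009 over all genes, and -0.011 from DPre-like to DPsel-like cells, where Trac differed most. At that step the members went both ways, with 0.38 for Cd3d, 0.32 for Cd3g, -0.011 for Cd3e, -0.21 for Ptcra and -0.22 for Cd247. Ptcra was at 0.89 in DN-like and 0.23 in DPre-like cells, and at 0.02 in DPsel-like cells.

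Of the 12 recombination genes listed, 10 were in the table. The step at which Trac was much higher was that at which these were lower: from DPre-like to DPsel-like cells 3 of the 5 that could be counted were past the limit, beside 4.56% of all genes, all lower, with -1.98 for Dntt, which adds bases at the joins, -1.56 for Rag1 and -0.88 for Xrcc6, a part of the end-joining machinery. Genes such as Rag1 also took part in forming the classes, so these values are descriptions. From DPbla-like to DPre-like cells Rag1 was the only one of 5 past the limit, beside 7.00% of all genes, higher by 0.88. From DN-like to ISP-like cells 2 of 6 were past the limit, beside 8.70% of all genes, Rag1 with -0.53 and Dntt with -0.88.

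All 12 transcription factors listed for the receptor loci were in the table, and members of the list were past the limit at 4 of the 5 steps. From DN-like to ISP-like cells 2 were higher and 2 lower, beside 8.70% of all genes, namely Tcf7 with 0.73, Satb1 with 0.52, Bcl11b with -0.87 and Runx1 with -0.53. Satb1 was the only one past it from ISP-like to DPbla-like cells, higher by 0.82, beside 4.82% of all genes, and none was from DPbla-like to DPre-like cells. In DPsel-like against DPre-like cells 1 was higher and 3 were lower, beside 4.56% of all genes, namely Lef1 with 1.10, Bcl11b and Tcf12 both with -0.54 and Tcf7 with -0.51, with a median over the list of -0.03 against -0.006 over all genes. From DPsel-like to single-positive-like cells 2 of the 11 counted were lower, beside 2.59% of all genes, Satb1 with -1.31 and Tcf7 with -0.70. Of the 8 genes listed for the gamma-delta lineage 5 were in the table, and besides Trdc these were Sox13, Blk, Maf and Id3, with means of 0.04, 0.05, 0.02 and 0.19 in DN-like cells. From DN-like to ISP-like cells 1 of the 2 that could be counted was past the limit, beside 8.70% of all genes, which was Id3, a target of receptor signals, with 0.70 in ISP-like cells and a difference of 0.51. No other step had a member of this list past the limit, and Id3 was at 1.02 in DPsel-like cells.

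Over the 15 thymocyte clusters, the genes whose means were most like those of each member were found by Pearson correlation among 7505 genes. For Trac these were Fam53b (0.95), Gimap6 (0.95), Macf1 (0.94), Txk (0.94) and Stk17b (0.93), of which Gimap6 and Txk are expressed in lymphocytes. For Trbc1 they were Themis (0.90), a regulator of signalling from the receptor, Slc43a1 (0.88), Rmnd5a (0.87), Gm37065 (0.86) and Aqp11 (0.85). For Trbc2 they were Ldhb (0.93), Ntrk3 (0.93), Lipa (0.92), Cerk (0.91) and Gm4258 (0.91). For Tcrg-C1 they were Myl10, Ifitm2, Il2ra (the interleukin 2 receptor alpha chain of DN cells), Mcub and Tmem121, and for Tcrg-C2 Plac8, Ifitm2, Mcub, Myl10 and Tmem121, all between 0.98 and 0.99. These values share 1 library and follow the stage, and for the gamma genes they rest largely on 1 cluster.

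Open chromatin was counted in the sorted cells at peaks that overlapped each gene, per 10000 counts in all peaks of the sort. The sorts held 1108749 (DN), 478264 (DP), 558091 (CD4) and 494645 (CD8) counts in 138317 peaks. The peak table gives intervals 4000 bases wide, but the counts come from narrower windows: 19.8% of the 53108 intervals that lay inside the union of their neighbours held more counts than both neighbours together. Neighbouring peaks overlap, so 1 fragment may enter the sums more than 1 time, and intervals of sums over overlapping peaks are then narrower than counting error. Centers of 13.5% of peaks lay within 500 bases of an annotated gene start, against 3.07% after a shift by 100000 bases, so the coordinates were taken as GRCm38.

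At the beta constant genes the signal was higher in DP than in DN cells. The 23 peaks at Trbc1 and Trbc2 had 1.58 (1.35 to 1.83) counts per 10000 in DN, 4.35 (3.78 to 4.98) in DP, 2.11 (1.75 to 2.53) in CD4 and 2.22 (1.83 to 2.68) in CD8 cells. The ratio of DP over DN was 2.76 (2.24 to 3.39), with Trbc1 alone at 2.71 (1.89 to 3.88) and Trbc2 alone at 2.78 (2.16 to 3.60). It was 2.58 (1.69 to 3.94) over the 3 peaks that do not overlap, 4.64 (3.03 to 7.22) over peaks centered in the genes and 2.00 (1.78 to 2.25) with 5 kb on either side, so its size depended on the choice of peaks. Over all peaks with at least 20 counts in both sorts together, 12.6% were at least 2-fold higher and 12.5% at least 2-fold lower in DP cells. A count fell at these genes in 70 of 125 DP and 60 of 182 DN cells. In such sums over a sort, fewer open cells and less signal per cell cannot be told apart.

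At Trac itself the sorts differed less. The 15 peaks that overlap the gene had 0.87 (0.70 to 1.06) counts per 10000 in DN, 0.94 (0.69 to 1.26) in DP, 1.67 (1.34 to 2.04) in CD4 and 1.25 (0.96 to 1.61) in CD8 cells. The ratio of DP over DN was 1.09 (0.75 to 1.56) and that of CD4 over DP 1.77 (1.23 to 2.59). Over the 2 peaks that do not overlap they were 1.07 (0.49 to 2.20) and 1.36 (0.63 to 3.07), intervals that include no difference. The ratio of DP over DN was 0.93 (0.61 to 1.39) in cells with label numbers under 10000 and 2.06 (0.74 to 5.03) in those above, so its direction depended on the numbered set.

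The strongest peaks lay downstream of the genes rather than in them. The 3 with most counts within 10 kb of each gene or gene pair were looked up after the values were seen. The strongest one near Trac had its center 3.40 kb past the end of the gene, where the alpha enhancer is known to lie. It had 0.75 (0.60 to 0.93) counts per 10000 in DN, 1.05 (0.78 to 1.38) in DP, 1.06 (0.80 to 1.36) in CD4 and 0.63 (0.43 to 0.89) in CD8 cells. The strongest one near the beta genes had its center 6.24 kb past the end of Trbc2, where the beta enhancer is known to lie, and had 1.55 (1.33 to 1.80) in DN, 1.67 (1.33 to 2.08) in DP, 1.99 (1.64 to 2.40) in CD4 and 1.56 (1.23 to 1.95) in CD8 cells. The ratios of DP over DN were 1.40 (0.96 to 2.01) after Trac and 1.08 (0.82 to 1.41) after Trbc2, so both peaks were open in DN cells and their intervals include no difference. For the Trac peak the direction turned with the numbered set: it had 0.593 in DN and 1.06 in DP cells with label numbers under 10000, and 1.11 in DN and 0.929 in DP cells with numbers above. A neighbouring peak 5.12 kb past Trbc2 differed, at 0.66 (0.52 to 0.83) in DN and 1.72 (1.36 to 2.13) in DP cells, a ratio of 2.60 (1.88 to 3.62).

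The 300 bases around the centers of the 2 strongest peaks follow, from the plus strand of GRCm38. Capitals mark matches, on either strand, to 6 motifs picked because factors of these families are known at receptor enhancers. The letters TGTGGT stood for RUNX factors, the letters TGACGT for the cyclic AMP response element (CRE), the letters AGATAA for GATA factors, the letters CAGGTG for the E-box of E proteins, the letters TTCAAAG for TCF/LEF factors and the letters AGGAAG for ETS factors.
Trac downstream peak, chr14:54227460-54227759: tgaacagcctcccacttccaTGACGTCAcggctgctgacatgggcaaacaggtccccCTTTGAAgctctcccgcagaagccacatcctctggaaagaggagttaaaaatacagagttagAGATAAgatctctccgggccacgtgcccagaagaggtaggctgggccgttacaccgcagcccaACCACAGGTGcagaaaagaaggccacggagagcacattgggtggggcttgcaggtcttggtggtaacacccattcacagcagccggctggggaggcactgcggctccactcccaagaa
Trbc2 downstream peak, chr6:41554444-41554743: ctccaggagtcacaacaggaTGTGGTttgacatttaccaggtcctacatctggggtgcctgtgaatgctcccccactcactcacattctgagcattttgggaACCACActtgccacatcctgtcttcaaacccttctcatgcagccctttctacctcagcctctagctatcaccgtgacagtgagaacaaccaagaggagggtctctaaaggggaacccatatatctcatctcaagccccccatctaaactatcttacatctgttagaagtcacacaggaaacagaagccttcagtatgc

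The Trac peak held matches to 5 of the 6 motifs. The CRE letters matched on both strands at overlapping positions 21 and 23, TCF/LEF at 58, GATA at 120, and RUNX at 183, which overlaps the E-box match at 187. The Trbc2 peak held 2 RUNX matches, at 21 and 103, and none to the other letters. Among the centers of 138312 peaks, RUNX letters were found in 27.5%, CRE in 4.87%, GATA in 12.1%, the E-box in 28.0%, TCF/LEF in 7.02% and ETS in 41.1%. A match is a description of the letters and not evidence that a factor was bound.

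Around the gamma genes the counts were few. The peaks that overlap Tcrg-C1 and Tcrg-C2 held 8 counts in DN, 1 in DP, 5 in CD4 and 2 in CD8 cells, with a ratio of DP over DN of 0.29 (0.0065 to 2.16). In these peaks a difference was not detectable at this depth. With 5 kb on either side, which takes in the peaks described next, the ratio was 0.083 (0.030 to 0.18). The strongest peaks lay 2.83 kb past the end of Tcrg-C1 and 4.04 kb past that of Tcrg-C2. They were picked by their counts over all sorts, 23 and 37, most of which were DN counts. Their ratios of DP over DN thus describe picked peaks and are no test of a difference. The peak after Tcrg-C2 had 35 counts in 22 of 182 DN cells, 1 count in 125 DP cells, 0 in 119 CD4 cells and 1 in 116 CD8 cells, a ratio of DP over DN of 0.066 (0.0016 to 0.39). The peak after Tcrg-C1 had 17 counts in DN, 1 in DP, 4 in CD4 and 1 in CD8 cells, a ratio of DP over DN of 0.14 (0.0033 to 0.87). Per 10000 it had 0.15 (0.089 to 0.25) in DN and 0.072 (0.020 to 0.18) in CD4 cells, with intervals that overlap. The DN sort held the most counts in total, but its median of 3377.5 per cell was below those of DP (3866) and CD8 cells (3935.5). Most of these DN counts came from 1 numbered set. The Tcrg-C2 peak had 0.44 counts per 10000 in DN cells with label numbers under 10000 and 0.030 in those above, and the Tcrg-C1 peak 0.18 and 0.090. The peak near Tcrg-C2 was thus not seen at the same level in both sets.

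The 2 gamma peaks are copies of each other, as the genes are. Their central 300 bases, each on the strand of its gene, aligned over 220 positions with 97.7% identity, so reads could be placed at either. The capitals mark the same motifs as above.
Tcrg-C1 downstream peak, chr13:19219707-19220006, plus strand: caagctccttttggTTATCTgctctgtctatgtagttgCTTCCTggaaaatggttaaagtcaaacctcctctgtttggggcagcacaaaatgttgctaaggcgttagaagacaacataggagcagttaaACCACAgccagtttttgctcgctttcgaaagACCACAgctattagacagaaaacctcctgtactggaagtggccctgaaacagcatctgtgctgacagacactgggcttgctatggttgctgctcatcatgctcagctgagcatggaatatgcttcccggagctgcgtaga
Tcrg-C2 downstream peak, chr13:19300464-19300763, minus strand: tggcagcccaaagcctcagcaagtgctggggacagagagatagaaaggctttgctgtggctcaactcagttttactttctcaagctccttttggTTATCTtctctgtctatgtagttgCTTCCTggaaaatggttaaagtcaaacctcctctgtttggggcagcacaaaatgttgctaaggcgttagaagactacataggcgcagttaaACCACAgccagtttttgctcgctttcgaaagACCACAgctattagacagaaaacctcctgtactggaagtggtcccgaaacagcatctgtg

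Both held 1 GATA match, 1 ETS match and 2 RUNX matches in the same order, at 15, 39, 130 and 161 after Tcrg-C1 and at 95, 119, 210 and 241 after Tcrg-C2.

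**Figure D5:**
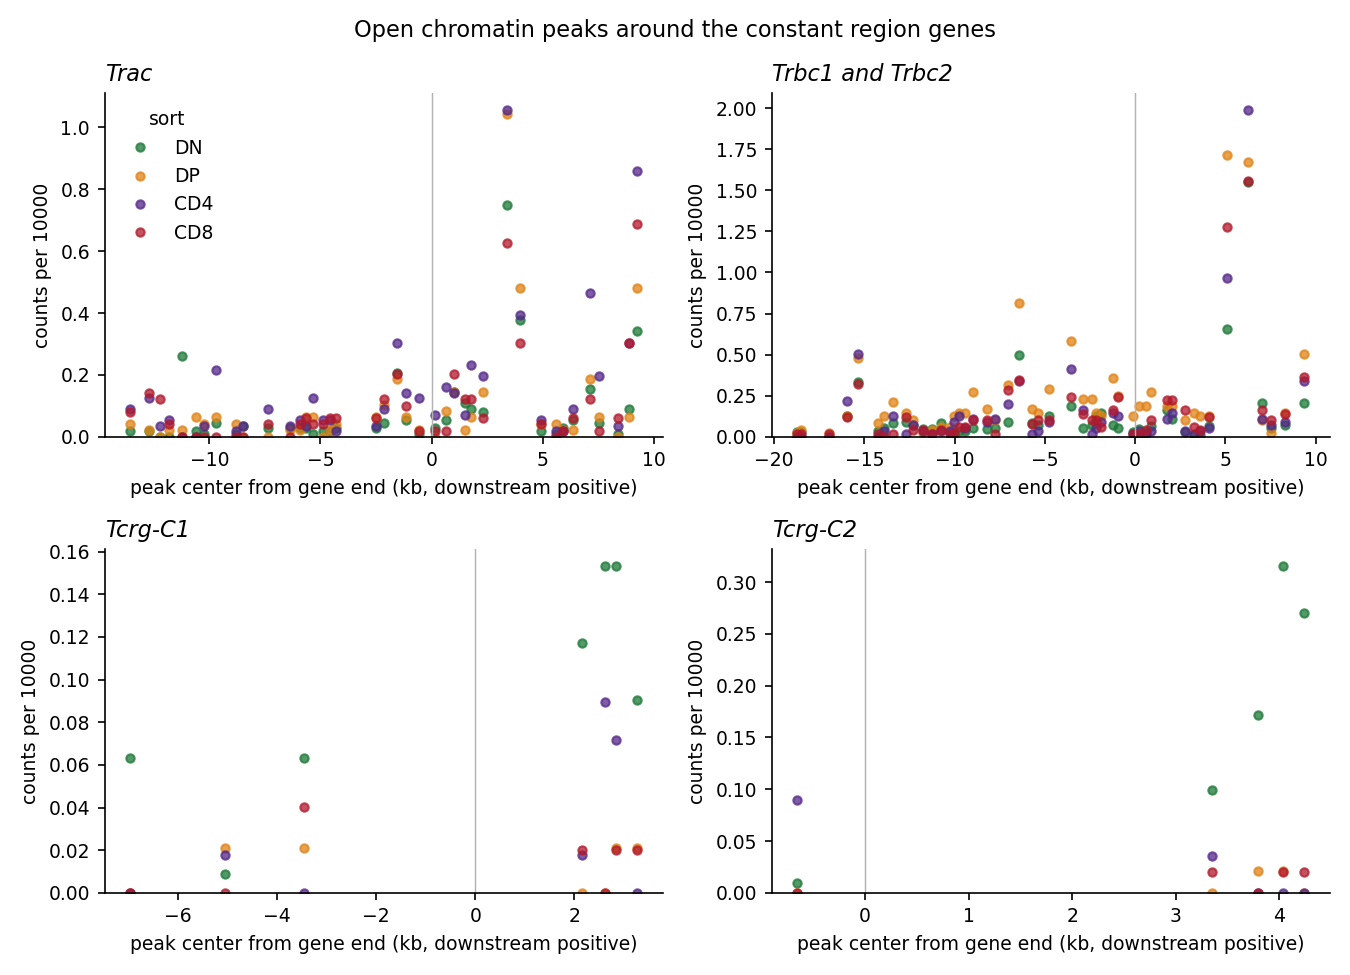
Counts per 10000 counts in peaks of the DN, DP, CD4 and CD8 sorts (points) against the distance of each peak's center from the end of the gene, in kb, downstream to the right, for Trac, the Trbc1 and Trbc2 pair (distance from the end of Trbc2), Tcrg-C1 and Tcrg-C2. The highest points of each panel lie downstream of the gene, and the downstream gamma peaks are highest in DN cells.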

How the data were processed

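The members and gene lists were chosen with earlier results of these data known. For the RNA table, the authors used Cell Ranger 1.3.1 and build GRCm38.p5 (per the submitters' processing notes) and filtered cells and genes. What they deposited are log2 values after quantile normalization. Per the study's methods, open chromatin reads were mapped with Bowtie2, duplicates removed with Picard and peaks called with MACS2 on merged cells, and the authors' table holds a raw count for every peak in every cell. The 1446 columns of cells outside the 4 sorts were not used here. The depth of the RNA library in reads or molecules is unknown, and step totals ran from 1356 to 22539 per cell. Sorted cells had a median of 2571 to 3935.5 counts in peaks per sort.

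Clustering used Seurat 5.3.0 (R 4.3.3) on 1292 variable genes (mean 0.025 to 3, dispersion at least 0.5), after 14 T cell receptor genes were left out, with 20 principal components, 30 neighbors and resolution 2. Each cluster was named for the marker list on which it scored highest as a mean of z scores. Clusters with Mki67 in at least 50% of cells could be ISP-like or DPbla-like only, others neither, and a cluster whose 2 best scores differed by under 0.1 stayed unnamed, which was decided with the clusters in view. The classes are rebuilt ones and may differ from the study's. No doublet caller was run. Cells were ordered by population balance analysis (10 neighbors), with 10 cells of the highest single-positive marker scores as sinks. Named genes were all members in every class, the fixed lists, and for each member the 5 genes above 0 in at least 5% of cells with the most similar cluster means. Intervals are exact binomial (Clopper-Pearson), exact Poisson or, for ratios, conditional binomial. Since no animal was named, no model was fitted and no p-value computed, and scripts were tested on simulated data. Gene coordinates are from GENCODE vM21 and sequences from RefSeq GRCm38 (pysam 0.24.0). Members' proteins and promoters were not analysed here. The first exons of the gamma genes are not reported here. Alternatives covered clustering, cell filters, thinning, detection limits, peak choice and label numbers.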

Additional observations from a re-analysis of the deposited data

How the results depend on the processing

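All results come from 1 library or 1 pooled sort each, so replicates could not be left out in turn. No paired analysis was possible because no group has more than 1 sample and the results come from no test. A log2 difference was taken as moved beyond 0.2, and a share or ratio outside the exact interval of the reported value. Of the recomputed values, 81 stayed within these limits, 13 moved and 1 changed direction. The alternatives with the unnamed cluster counted as ISP-like or DPbla-like and with peaks that do not overlap were chosen after seeing the data. Counting that cluster as ISP-like could change none of these results, since none uses the ISP-like class. Counting it as DPbla-like could change only the Trac difference from DPbla-like to DPre-like cells, which was 0.41 against 0.36. The other values under these 2 countings were fixed in advance, and they are included in those that stayed. Peaks that do not overlap moved none of the results they were run for.

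Over cells with a value above 0 only, the Trac difference was 0.67 from DPbla-like to DPre-like and 0.78 from DPre-like to DPsel-like cells. On log2(steps + 1) of thinned cells, the differences from DPre-like to DPsel-like cells were 0.72 for Trac, -0.43 for Trbc1 and -0.27 for Trbc2, a scale that compresses high values. Thinning gave Tcrg-C1 in 67.6% of DN-like cells and both beta genes in 82.8% of single-positive-like cells with either. With at least 2 steps required, these shares were 75.7% and 77.3%. The ratio of DP over DN at Trac was 0.93 for label numbers under 10000 and 2.06 above. At the beta genes it was 4.64 for peaks centered in the genes and 2.00 with 5 kb on either side. At the gamma genes it was 0 for peaks centered in them, with 0 counts against 1, and no ratio could be formed for label numbers over 10000. With 5 kb on either side it was 0.083 (0.030 to 0.18). The causes of these shifts were not tested. Depth limits what can be said of Trac in early cells and of the gamma peaks.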
